A study of Mus musculus with 8 samples.

Results

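The genes described here are 47 genes that act in the sensory and supporting epithelia of the cochlea and in its lateral wall, most of them known for causing deafness when they are mutated. The genes were taken by symbol from a list of names. 45 of them were among the 15035 genes of the table analysed here, and Atoh1, for a hair cell determination factor, and Kcne1, for a subunit of the strial potassium channel, were not analysed here. Auditory nerves were dissected from mice aged 21 days after birth, both ears of an animal making 1 library, and were measured by poly(A) RNA sequencing. One group was 4 wild-type mice (libraries 1 to 4). The other was 4 mice of the same age labelled Mef2c +/-, that is, heterozygous for a MADS-box transcription factor gene (libraries 5 to 8). Strain, sex, litters and how the Mef2c allele was made were not given in the sources used here. The study compared the nerve transcripts of the 2 genotypes, and the question for these genes is how much cochlear epithelium the dissected nerve holds, library by library.

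In the cochlea, hair cells turn sound into electrical signals. Their stereocilia, bound by tip links, open transduction channels, and inner hair cells then release glutamate onto spiral ganglion neurons through ribbon synapses, while outer hair cells change length and amplify. The tectorial membrane, a sheet of collagens and glycoproteins, lies over the hair cells, and the stria vascularis and the fibrocytes of the lateral wall keep the endolymph rich in potassium. Spiral ganglion neurons and their glia do not make most of these proteins, and the osseous spiral lamina that carries the nerve fibres ends at the organ of Corti. In bulk tissue, a larger share of a cell type and more RNA per cell cannot be told apart.

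The promoters of 4 genes whose transcripts had higher means in the labelled heterozygotes are shown so that the motif search below can be read against them. They are the 250 bases before the RefSeq start site on GRCm38.p6, written 5′ to 3′. Capitals mark CAGCTG, an E-box, the class of site bound by basic helix-loop-helix factors such as Atoh1. For Espn the first of 3 RefSeq windows is given, and for Tecta the second of 2.
Espn (chr4:152152390-152152639, minus strand): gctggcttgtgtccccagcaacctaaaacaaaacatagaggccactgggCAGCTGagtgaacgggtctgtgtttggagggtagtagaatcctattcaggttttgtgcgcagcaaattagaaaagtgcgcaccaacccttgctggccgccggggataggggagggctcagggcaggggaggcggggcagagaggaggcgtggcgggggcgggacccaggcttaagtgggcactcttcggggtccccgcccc
Myo15 (chr11:60469089-60469338, plus strand): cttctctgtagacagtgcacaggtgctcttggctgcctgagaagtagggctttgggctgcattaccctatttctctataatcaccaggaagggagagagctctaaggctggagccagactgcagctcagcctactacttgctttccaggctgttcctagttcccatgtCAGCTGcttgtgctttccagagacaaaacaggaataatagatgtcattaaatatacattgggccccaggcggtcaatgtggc
Otog (chr7:46240737-46240986, plus strand): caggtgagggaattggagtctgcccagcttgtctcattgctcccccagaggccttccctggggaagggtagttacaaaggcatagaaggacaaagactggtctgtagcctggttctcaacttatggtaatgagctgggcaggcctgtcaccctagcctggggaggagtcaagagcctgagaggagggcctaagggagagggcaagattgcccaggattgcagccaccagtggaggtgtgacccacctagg
Tecta (chr9:42399948-42400197, minus strand): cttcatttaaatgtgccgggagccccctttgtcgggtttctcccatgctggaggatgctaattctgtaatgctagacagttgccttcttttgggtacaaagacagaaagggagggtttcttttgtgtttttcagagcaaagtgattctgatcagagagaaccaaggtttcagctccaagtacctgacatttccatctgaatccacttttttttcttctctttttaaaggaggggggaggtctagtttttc
Windows of 300 bases (250 before and 50 after the start) were found for 36 of the 45 genes, 50 windows in all, and not for Loxhd1, Ptprq, Otof, Pou4f3, Eya1, Otogl, Kcnq1, Crym and Diaph1. Both strands were searched. CAGCTG, which reads the same on both strands and is 1 form of the wider E-box CANNTG, was in 10 of the 50 windows (20%) and in 16.3% of the 32851 windows of all genes. CANNTG was in 43 windows (86%), against 72.3% of all. The MEF2 consensus was in 0 of the 50 and in 3.19% of all windows. TATAAA was in 5 (10%), against 13.6%. A match is a description of letters only.

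Before the results, the state of the libraries is given. Mef2c had 462 ± 50.4 normalized counts in wild type and 668.3 ± 66.8 in the labelled heterozygotes (SD, n = 4 each), higher in all 4 of the latter. The log2 fold change was 0.53 (standard error 0.13, limma-trend adjusted p 0.186). This is not the lower level that a heterozygote label might call for. With the allele not described, these counts cannot decide whether the label is right. Every direction below is therefore between libraries as labelled. A normalized count is a gene's read count divided by a size factor of its library. Estimated depth was 13363571 to 21507345 reads, lowest in wild-type libraries 1 and 4. Wild-type library 1 and heterozygote-labelled library 5 had almost no Xist (12 and 7.6 normalized counts, against 5175 or more in the others). The 9 spiral ganglion neuron markers summed to 1.20% to 1.59% of a library's normalized counts and the 6 Schwann cell markers to 0.636% to 0.908%. Oligodendrocyte markers (8 genes, with Opalin nearly absent at 3.6 to 27.3) summed to 5496 to 7430.0 ppm in wild type and 2520.2 to 3741 in the labelled heterozygotes. The 8 bone markers summed to 323.3 to 1108 and 687.6 to 1546, and the 4 neutrophil markers in the table to 6.20 to 135.3 and 38 to 360.6. The 5 fibroblast markers summed to 1325 to 2353 and 1746 to 2249.8, and the 5 red cell markers to 594.8 to 1983 and 499.7 to 1715. None of these markers was at 0 in any library. In limma-trend, 6 of the 8 oligodendrocyte markers were lower at an unadjusted p under 0.05 (against 7.34% of all genes), 4 of them at an adjusted p under 0.05. At the same unadjusted threshold, 5 of the 8 bone and 3 of the 4 neutrophil markers were higher (against 6.72%). So was 1 of the 5 fibroblast markers. Of the 6 Schwann cell markers 2 were lower, and of the 9 neuron markers 1 was higher and 1 lower. Of the 5 red cell markers 0 passed it. The part of all these markers in the results below was not tested.

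All 45 genes had values above 0 in every library. This sets them little apart, since only 22 of the 15035 genes of the table had a value of 0 in 1 or more libraries. Summed, the 45 genes took 7996, 10135, 9974 and 8427 ppm of the normalized counts in wild-type libraries 1 to 4, and 10614, 8544, 11416 and 11573 in heterozygote-labelled libraries 5 to 8, or 0.800% to 1.16% of a library. Wild-type libraries 1 and 4 and heterozygote-labelled library 6 held the least, and the groups overlapped. Most of this was Coch, for cochlin, a secreted protein of the fibrocytes of the spiral ligament and limbus, which made up 69.9% to 78.3% of the sum. Without Coch, the 44 other genes took 2049.9, 2464, 2168 and 2539 ppm in wild type and 2606, 2121, 2932 and 3035 in the labelled heterozygotes. Library 8 was then the highest and wild-type library 1 the lowest. The 23 genes of the bundle and synapse groups took 695.2 to 970.4 ppm in wild type and 717.6 to 1149 in the labelled heterozygotes, again with overlap. Myo6 had the highest mean of the 23, at 3644 normalized counts. How much of this sum came from hair cells was not tested.

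Per kilobase of the longest annotated transcript, levels over all 8 libraries spanned a wide range. Coch had a mean of 46576 normalized counts per kilobase. Epyc, for the small proteoglycan epiphycan, followed with 2147 and Ocm, for oncomodulin, the calcium buffer of outer hair cells, with 1902. The library ranges of these 2 neighbours overlapped, at 1019 to 3218 and 305.9 to 4833. Serpinb6a (909), Otoa (669.7), Pou3f4 (604.3) and Myo6 (459.7) came next. At the low end were the giant hair bundle genes, with 3.80 for Adgrv1, 18 for Pcdh15 and 23.7 for Cdh23, and Grxcr1 with 21.7. Hair cell identity genes were well above the level of a few reads, since 3 reads are worth 2.37 to 3.89 normalized counts: Pou4f3 had 70.6 to 178.1 normalized counts and Slc26a5 61.9 to 554.4.

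All 45 genes passed the filter of 10 or more normalized counts in 4 or more libraries, as did 14870 of the 15035 genes of the table. In the limma-trend fit over 14870 genes, 0 of the 45 had an adjusted p under 0.05, a threshold that 0.0807% of all genes passed. At an unadjusted p under 0.05 there were 12 of 45 (26.7%), against 14.1% of all genes tested. Of these, 10 were higher in the labelled heterozygotes (22.2%, against 6.72% of all genes) and 2 were lower (4.44%, against 7.34%). The authors' deposited table gave 5 of the 45 an FDR under 0.05 (11.1%, against 1.61% of its genes), all 5 higher in the labelled heterozygotes: Otog, Espn, Tecta, Gfi1 and Myo15. The median log2 fold change of the 45 was 0.21, against 0.02 over all genes, and 33 of 45 lay above 0, against 52.3% of all genes. Without the 2 libraries low in Xist the median was 0.10. In 6 of the 45 (13.3%) the groups did not overlap, against 7.26% of all genes, 5 of them higher (against 3.4%) and 1 lower (against 3.86%).

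**Figure D1:**
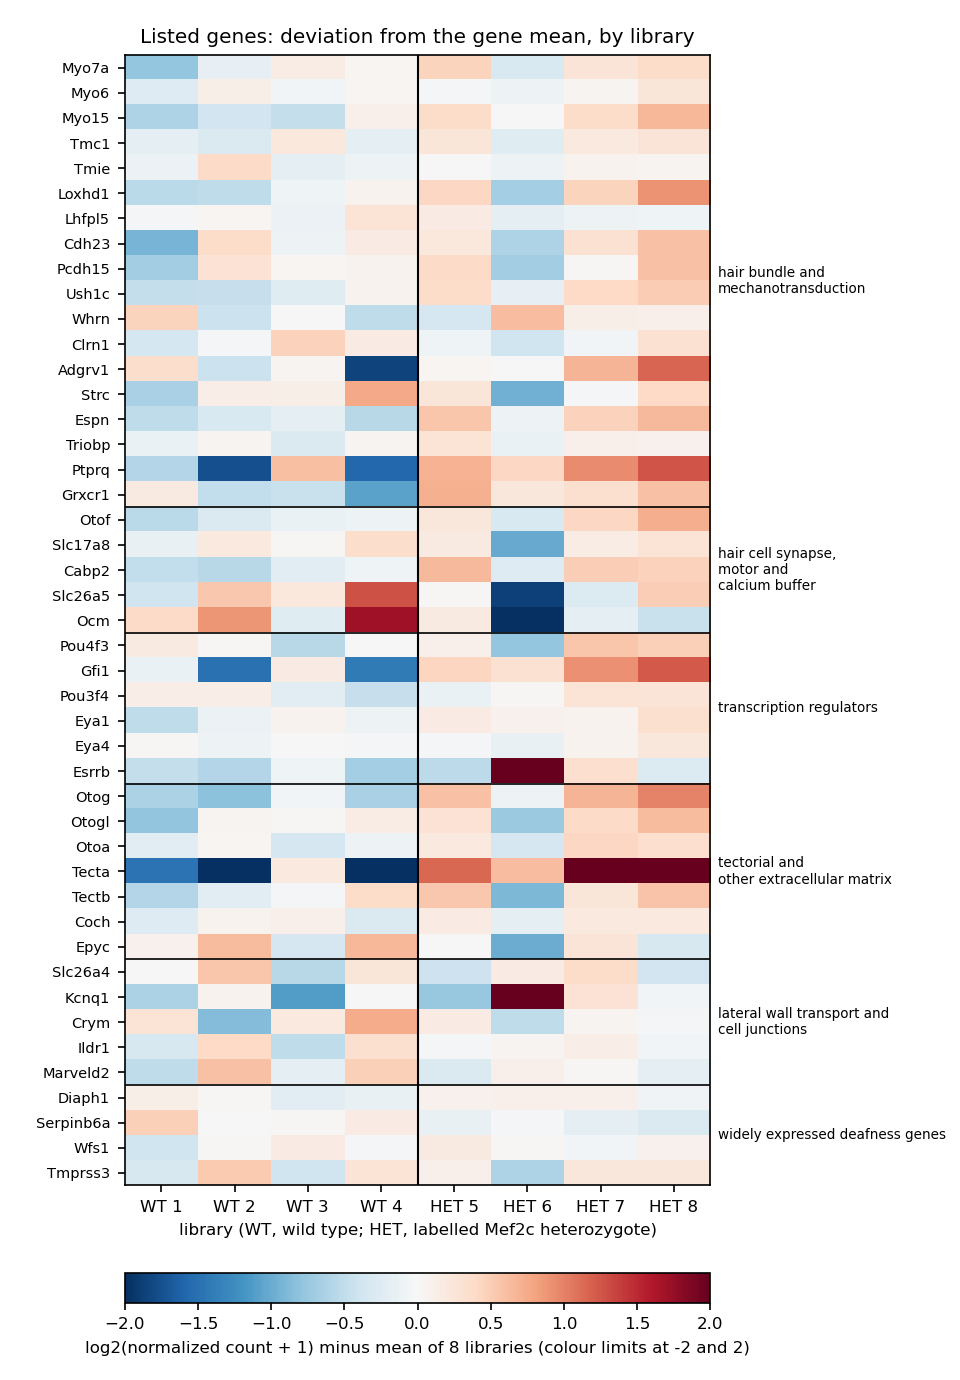
Rows are the 45 genes by role and columns the 8 libraries (WT, wild type; HET, labelled Mef2c heterozygote); colour is log2(normalized count + 1) minus the gene's mean over the 8 libraries, limited at -2 and 2. Tecta, Ptprq and Gfi1 are lowest in WT 2 and WT 4, Slc26a5 and Ocm are lowest in HET 6, and Esrrb and Kcnq1 are highest there.

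Of the 7 matrix genes, 2 had an unadjusted p under 0.05, both higher in the labelled heterozygotes (28.6%, against 6.72% of all genes), 6 had a log2 fold change above 0, and the median was 0.28. Tecta encodes alpha-tectorin, a main glycoprotein of the tectorial membrane and of the otolithic membranes of the vestibular organs. It lies on chromosome 9 from 42329619 to 42399929 on the minus strand (mm10). Its wild-type libraries 1 to 4 had 72.7, 34.7, 232.8 and 49.5 normalized counts and heterozygote-labelled libraries 5 to 8 had 453, 311.9, 851.9 and 821.3. All 4 labelled heterozygotes lay above all wild types, and wild-type library 3 stood well above the other 3 wild types. The means were 97.4 ± 91.6 in wild type and 609.5 ± 268.7 in the labelled heterozygotes (SD, n = 4 each). This is a log2 fold change of 2.91 (standard error 0.51), with a limma-trend unadjusted p of 0.00010 and an adjusted p of 0.0632. The authors' deposited table gave it a ratio of 6.25 and an FDR of 0.014. The adjusted p of Tecta in limma-trend passed 0.05 without wild-type library 3 (0.00378), with sample weights (0.0109) and with the length trend removed (0.0495), over a range of 0.00378 to 0.325 in 18 alternatives. Library 3 had the highest wild-type value, so leaving it out tends to lower this p. In that fit 23.0% of all genes had an unadjusted p under 0.05, and with sample weights 17.8%, against 14.1% in the fit reported. The same fits are given for Otog, Ptprq and Gfi1 below.

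Otog, for otogelin, a glycoprotein of the acellular membranes over cochlear and vestibular epithelia, lies on chromosome 7 from 46240987 to 46311434 on the plus strand. It had 2542, 2236, 3823 and 2533 normalized counts in the wild-type libraries and 5904, 3669.9, 6339 and 7881 in the labelled heterozygotes. Library 6 lay below wild-type library 3, so the groups overlapped, and the other 3 labelled heterozygotes stood above every wild type. It had a log2 fold change of 1.07 (standard error 0.22), with a limma-trend unadjusted p of 0.000345 and an adjusted p of 0.112. In the authors' deposited table it had a ratio of 2.14 and an FDR of 0.000175. Its limma-trend adjusted p was 0.0217 without heterozygote-labelled library 6, 0.0200 without wild-type library 3 and 0.0250 with sample weights, with 0.0200 to 0.416 over 18 alternatives. For its paralog Otogl, the wild types had 472.4, 854, 837.8 and 910.7 and the labelled heterozygotes 1008, 487.9, 1069 and 1269, a log2 fold change of 0.28 (standard error 0.28, limma-trend adjusted p 0.658). Wild-type library 1 and library 6 were the low ones there.

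The other tectorial and limbal genes had smaller differences. Otoa, for otoancorin, which attaches the tectorial membrane to the spiral limbus, had 2454, 2950.0, 2267 and 2659.7 normalized counts in wild type and 3289, 2268, 3797 and 3605 in the labelled heterozygotes. Libraries 5, 7 and 8 lay above all wild types and library 6 beside the lowest, and its log2 fold change was 0.31 (standard error 0.15, limma-trend adjusted p 0.379). Tectb, for beta-tectorin, had 233.6 to 456.6 in wild type and 189.1 to 524.1 in the labelled heterozygotes, with a log2 fold change of 0.23 (standard error 0.31, limma-trend adjusted p 0.742). Library 6 had its lowest value. Coch had 103121, 130110.0, 133105 and 100953 in wild type and 138322, 109735, 141874 and 141737 in the labelled heterozygotes. Its log2 fold change of 0.19 (standard error 0.19, limma-trend adjusted p 0.643) came from overlapping groups. Epyc had 5433, 7993, 4052 and 8171 in wild type and 5135, 2587, 6149 and 4092 in the labelled heterozygotes, with library 6 the lowest and wild-type libraries 2 and 4 the highest, and a log2 fold change of -0.53 (standard error 0.27, limma-trend adjusted p 0.388). An antisense transcript overlaps 40.6% of the exonic bases of Epyc, the library kit marks strand, and whether reads were counted by strand was not given in the sources used here.

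Among the 18 hair bundle and mechanotransduction genes, 4 had an unadjusted p under 0.05, all higher in the labelled heterozygotes (22.2%, against 6.72% of all genes), and 15 had a log2 fold change above 0, with a median of 0.24. Espn encodes espin, which bundles the actin of stereocilia, and lies on chromosome 4 from 152120331 to 152152371 on the minus strand. The wild types had 205, 237.4, 255.7 and 198.1 normalized counts and the labelled heterozygotes 430.1, 272.7, 402.4 and 457.6. The groups did not overlap, though library 6 lay close to wild-type library 3. It had a log2 fold change of 0.78 (standard error 0.19), with a limma-trend unadjusted p of 0.00127 and an adjusted p of 0.186. The authors' deposited table gave a ratio of 1.74 and an FDR of 0.00934. Myo15, for the myosin that carries whirlin to the tips of stereocilia, had 241.4, 284.7, 266.7 and 398.6 in wild type and 477.9, 369.4, 476.8 and 586.9 in the labelled heterozygotes. Of the labelled heterozygotes, library 6 was inside the wild-type range and the other 3 were above it. Its difference was a log2 fold change of 0.69 (standard error 0.19), with a limma-trend unadjusted p of 0.00338 and an adjusted p of 0.222, against a ratio of 1.6 and an FDR of 0.0478 in the authors' deposited table. With the trend on transcript length removed from each library, the log2 fold change of Myo15, whose longest transcript has 11769 bases, was 0.40.

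Ptprq, for a receptor phosphatase of the shaft links of stereocilia, ranged most widely of the 4. It had 480.2, 213.7, 1098 and 242.8 normalized counts in wild type and 1171, 968.9, 1400.4 and 1731 in the labelled heterozygotes. Wild-type library 3 reached the level of the labelled heterozygotes, while wild-type libraries 2 and 4 lay far below. The result was a log2 fold change of 1.66 (standard error 0.42), with a limma-trend unadjusted p of 0.00181 and an adjusted p of 0.211, and a ratio of 2.59 and an FDR of 0.201 in the authors' deposited table. Without wild-type library 3 the limma-trend adjusted p was 0.00901, and with sample weights 0.0248 (range 0.00901 to 0.587 over 18 alternatives). Ush1c, for harmonin, the scaffold at the upper end of the tip link, had 590.5, 595.4, 691.1 and 857.6 in wild type and 1055, 726.7, 1084 and 1159 in the labelled heterozygotes. Libraries 5, 7 and 8 lay above all wild types and library 6 did not. It gave a log2 fold change of 0.55 (standard error 0.17), with a limma-trend unadjusted p of 0.0062 and an adjusted p of 0.259.

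The remaining 14 bundle genes did not reach an unadjusted p of 0.05. Myo6, for the minus-end directed myosin at the base of stereocilia, had 3037, 3948, 3495 and 3709 normalized counts in wild type and 3528, 3395, 3762 and 4279 in the labelled heterozygotes. The groups overlapped widely, and the log2 fold change was 0.08 (standard error 0.11, limma-trend adjusted p 0.752). Lhfpl5, for a subunit of the transduction complex, had 294.6, 308.3, 275.9 and 362.4 in wild type and 335.6, 264, 278 and 282.2 in the labelled heterozygotes, a log2 fold change of -0.10 (standard error 0.15, limma-trend adjusted p 0.784). Tmc1 (pore-forming subunit of that channel), Tmie (its partner), Loxhd1, Cdh23 and Pcdh15 (the tip link cadherins), Myo7a and Whrn had log2 fold changes from 0.01 (Tmie) to 0.54 (Loxhd1). Grxcr1 did not overlap between groups, at 9.70 to 24.7 and 25.3 to 35.8, and had a log2 fold change of 0.92 (standard error 0.43, limma-trend adjusted p 0.359) at a very low level. Adgrv1, the ankle link receptor, had 16.9 to 81.8 and 63.6 to 144.4, with a log2 fold change of 0.94 (standard error 0.47, limma-trend adjusted p 0.381). Triobp had 0.16, and Clrn1 and Strc had -0.12 and -0.17. Strc, for stereocilin, which joins the tallest outer hair cell stereocilia to the tectorial membrane, had its highest value in wild-type library 4 (576.1) and its lowest in library 6 (175.1).

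**Figure D2:**
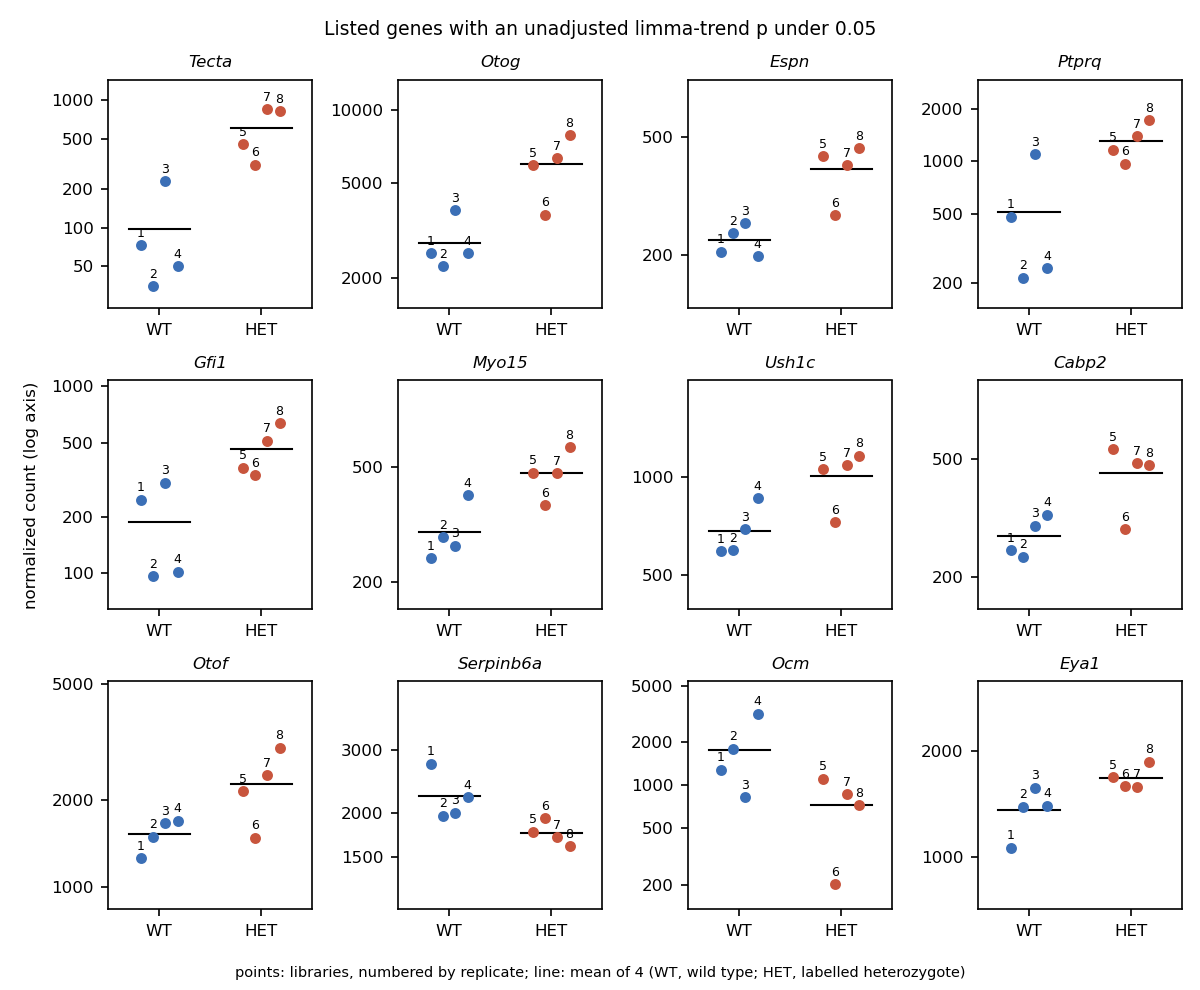
Points are the normalized counts (log axis) of the 12 genes with an unadjusted limma-trend p under 0.05, by group, numbered by library, with the mean of 4 as a line. Tecta, Espn, Gfi1, Eya1 and Serpinb6a do not overlap between groups; in Otog, Myo15, Ush1c, Cabp2 and Otof heterozygote-labelled library 6 lies within the wild-type range.

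The genes of the hair cell synapse, motor and calcium buffer did not share a direction. Of the 5 genes in this group, 3 had an unadjusted p under 0.05, against 14.1% of all genes, 2 higher and 1 lower. Otof, for otoferlin, the calcium sensor of vesicle release in inner hair cells, had 1254, 1489.6, 1662 and 1689.8 normalized counts in wild type and 2141, 1477, 2431 and 3018 in the labelled heterozygotes. Libraries 5, 7 and 8 lay above every wild type, and library 6 lay below all wild types but library 1. It gave a log2 fold change of 0.54 (standard error 0.19), with a limma-trend unadjusted p of 0.0137 and an adjusted p of 0.278. With the length trend removed its log2 fold change was 0.34, with a limma-trend unadjusted p of 0.0529, and without the 2 libraries low in Xist that p was 0.0521. Cabp2, for a regulator of the calcium channel at the ribbon, had 246.6, 235, 298.8 and 324.9 in wild type and 540.9, 290.1, 484.4 and 477.2 in the labelled heterozygotes, again with library 6 alone inside the wild-type range. It showed a log2 fold change of 0.67 (standard error 0.20), with a limma-trend unadjusted p of 0.00624 and an adjusted p of 0.259. Slc17a8, for the transporter that loads glutamate into the vesicles of inner hair cells, had 425.7, 540.2, 477.6 and 600.3 in wild type and 533.3, 233.5, 525.8 and 571.9 in the labelled heterozygotes. The 7 values other than that of library 6 lay between 425.7 and 600.3, and the log2 fold change was -0.20 (standard error 0.25, limma-trend adjusted p 0.725).

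Ocm and Slc26a5, both of outer hair cells, had lower means in the labelled heterozygotes. Ocm had 1287, 1812, 826.8 and 3180.3 normalized counts in wild type and 1115, 201.3, 867.9 and 723.8 in the labelled heterozygotes. Wild-type library 4 was far the highest and library 6 far the lowest, and the groups overlapped through wild-type library 3. It gave a log2 fold change of -1.36 (standard error 0.49), with a limma-trend unadjusted p of 0.0178 and an adjusted p of 0.285. Without library 6 the log2 fold change was -0.82, and without wild-type library 4 its unadjusted limma-trend p was 0.0649. Slc26a5, for prestin, the motor protein of outer hair cells, had 172.6, 333.6, 264.9 and 554.4 in wild type and 232.5, 61.9, 188.5 and 323.5 in the labelled heterozygotes. The highest and the lowest library were the same as for Ocm. Its log2 fold change of -0.81 (standard error 0.46, limma-trend adjusted p 0.433) did not reach an unadjusted p of 0.05, and without library 6 it was -0.32. Chrna9 and Chrna10, for the subunits of the acetylcholine receptor of outer hair cells, belong to a further list and were added once their values had been seen. Chrna9 had 88.7 ± 12.5 in wild type and 98.7 ± 34.1 in the labelled heterozygotes (SD, n = 4 each), with a log2 fold change of 0.10 (standard error 0.28, limma-trend adjusted p 0.891). Chrna10 had 240.8 ± 55.8 in wild type and 276.1 ± 80.4 in the labelled heterozygotes (SD, n = 4 each) and a log2 fold change of 0.17 (standard error 0.24, limma-trend adjusted p 0.76), so neither mean was lower.

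All 6 transcription regulators in the table had a log2 fold change above 0, with a median of 0.27, and 2 had an unadjusted p under 0.05 (33.3%, against 14.1% of all genes). Gfi1 encodes a zinc-finger repressor that hair cells need for their survival and that neutrophil precursors also make. It lies on chromosome 5 from 107716657 to 107726036 on the minus strand. It had 246.6, 96.2, 304.3 and 101.5 normalized counts in wild type and 367.1, 333.7, 512.7 and 632.9 in the labelled heterozygotes. The groups did not overlap, and wild-type libraries 2 and 4 lay far below libraries 1 and 3. The difference was a log2 fold change of 1.43 (standard error 0.36), with a limma-trend unadjusted p of 0.00201 and an adjusted p of 0.214, and the authors' deposited table gave a ratio of 2.47 and an FDR of 0.0209. Its adjusted p in limma-trend was 0.0365 without wild-type library 3 and 0.0248 with sample weights (range 0.0248 to 0.587 over 18 alternatives). Among the same libraries the 4 neutrophil markers summed to 135.3, 8.37, 21.4 and 6.20 ppm in wild type and 76.7, 38, 360.6 and 265.4 in the labelled heterozygotes. In 3 of the 4 markers the labelled heterozygotes lay above all wild types, against 3.4% of all genes. The other marker, Ltf, overlapped, with 2176 normalized counts in wild-type library 1 and 29 to 1464 elsewhere. The part of the neutrophil markers in the Gfi1 values was not tested. Pou4f3, another factor of hair cell survival, had 136.3, 123, 81.6 and 120.8 in wild type and 129.3, 70.6, 178.1 and 168.8 in the labelled heterozygotes. This was a log2 fold change of 0.18 (standard error 0.31, limma-trend adjusted p 0.801); the difference between the 2 factors was not tested.

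Eya1, for a phosphatase and coactivator of homeodomain factors in otic development, had 1059, 1387, 1575 and 1396 normalized counts in wild type and 1686, 1592, 1582 and 1868 in the labelled heterozygotes. The groups just failed to overlap, wild-type library 3 lying next to library 7. This gave a log2 fold change of 0.32 (standard error 0.12), with a limma-trend unadjusted p of 0.0219 and an adjusted p of 0.297. The unadjusted limma-trend p was 0.0688 when library 8 was left out, and 0.076 when the 2 low-Xist libraries were. Its relative Eya4 had 1241, 1146, 1216 and 1189.7 in wild type and 1198, 1105, 1282 and 1435 in the labelled heterozygotes, with a log2 fold change of 0.06 (standard error 0.10, limma-trend adjusted p 0.799). Pou3f4, for a POU-domain factor of the otic mesenchyme that lines the nerve's channels, had 1918, 1913, 1487 and 1272 in wild type and 1601, 1768, 2105 and 2092 in the labelled heterozygotes. The groups overlapped, and the log2 fold change was 0.21 (standard error 0.15, limma-trend adjusted p 0.515). Esrrb, for an orphan receptor of the strial marginal cells, was chosen for closer description after its values were seen. It had 285.5, 264.2, 374.9 and 248.8 in wild type and 277, 1959.5, 502.3 and 329.1 in the labelled heterozygotes, so library 6 stood 3.90-fold above the next library. Its log2 fold change was 0.92 (standard error 0.48, limma-trend adjusted p 0.394), and 0.30 without library 6.

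Of the 5 lateral wall transport and junction genes in the table, 0 had an unadjusted limma-trend p under 0.05 and 0 had an FDR under 0.05 in the authors' deposited table, and the median log2 fold change was -0.13. Slc26a4, for pendrin, an anion exchanger of root, spindle and outer sulcus cells, had 1185, 1723, 803.9 and 1394 normalized counts in wild type and 886.4, 1319, 1520.1 and 902 in the labelled heterozygotes. High and low values occurred in both groups, and the log2 fold change was -0.13 (standard error 0.23, limma-trend adjusted p 0.815). Kcnq1, for the pore of the potassium channel of strial marginal cells, had 101.2, 165.6, 71.5 and 155.8 in wild type and 92.3, 725.8, 192.2 and 151 in the labelled heterozygotes. Library 6 stood 3.78-fold above the next library, and the log2 fold change of 0.84 (standard error 0.52, limma-trend adjusted p 0.468) was 0.25 without it. Kcnq1ot1, an antisense transcript, shares 2.96% of the exonic bases of Kcnq1. Ildr1, for a protein of tricellular junctions, had 272.5, 445.5, 239.2 and 426.4 in wild type and 332.4, 353.8, 372.2 and 325.3 in the labelled heterozygotes, a log2 fold change of 0.05 (standard error 0.20, limma-trend adjusted p 0.924). Marveld2, for tricellulin, and Crym, for a thyroid hormone-binding crystallin, had log2 fold changes of -0.18 and -0.17, with library values of 70.1 to 150.6 and 52.8 to 161.9.

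Of the 4 genes grouped as widely expressed deafness genes, 1 had an unadjusted p under 0.05, against 14.1% of all genes, and the median log2 fold change was 0.04. The group name is a label of the list, and how widely each is expressed was not tested. Serpinb6a, for an intracellular protease inhibitor, had 2742, 1962, 2002 and 2207 normalized counts in wild type and 1769.5, 1931, 1709 and 1612 in the labelled heterozygotes. All 4 labelled heterozygotes lay below all wild types, though library 6 was close to wild-type library 2. It gave a log2 fold change of -0.33 (standard error 0.12), with a limma-trend unadjusted p of 0.0139 and an adjusted p of 0.278. Exons of Nqo2, Ripk1 and an antisense transcript overlap 14.1%, 4.46% and 10.8% of its exonic bases on the opposite strand. Wfs1, for wolframin of the endoplasmic reticulum, had 948.7, 1279.8, 1401 and 1239 in wild type and 1416, 1279, 1202 and 1328 in the labelled heterozygotes, with a log2 fold change of 0.11 (standard error 0.12, limma-trend adjusted p 0.68). Tmprss3, for a membrane serine protease, had 619, 1114, 589.4 and 936.1 in wild type and 831, 506.2, 905.6 and 906.7 in the labelled heterozygotes, with a log2 fold change of -0.03 (standard error 0.23, limma-trend adjusted p 0.956). Diaph1, for an actin-nucleating formin, had 1079 to 1345 in all libraries and a log2 fold change of 0.11.

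**Figure D3:**
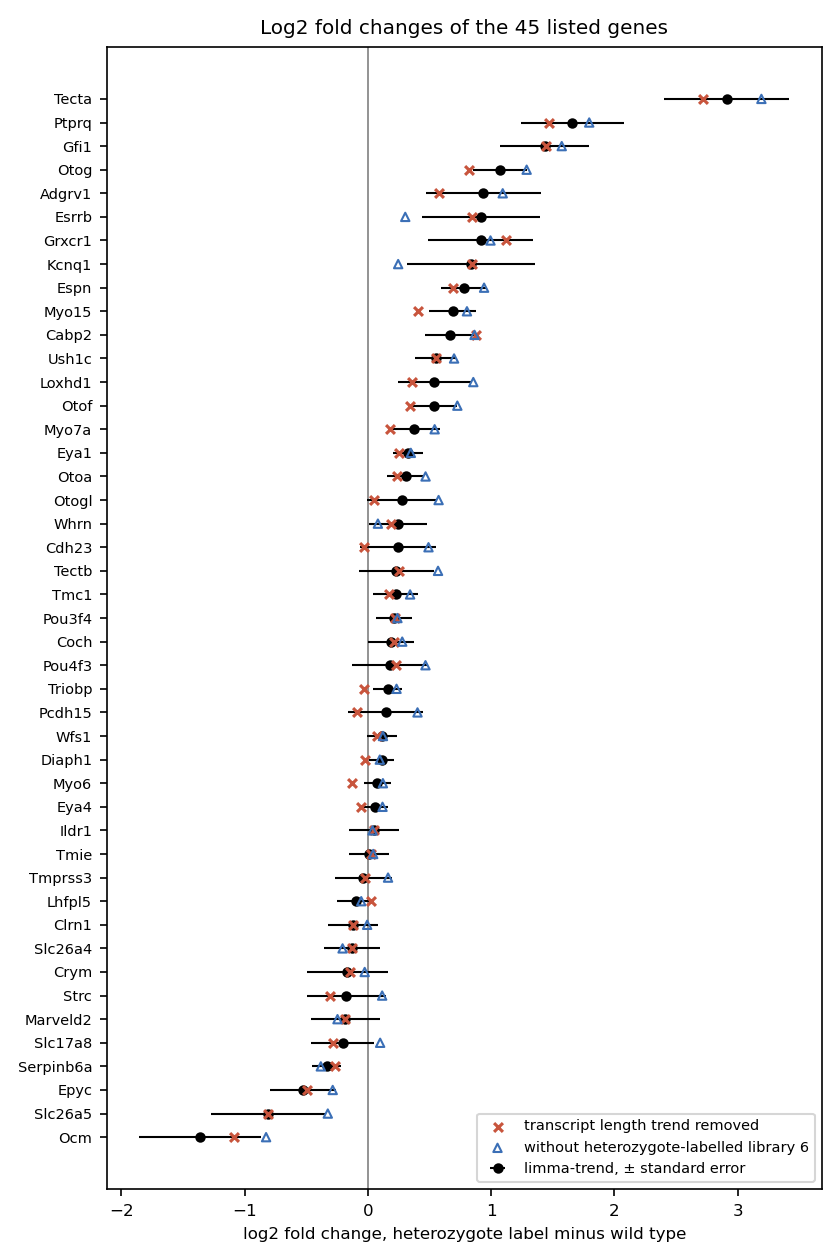
Black points are log2 fold changes (labelled heterozygote minus wild type) of the 45 genes with standard errors as bars, crosses the values with the trend on transcript length removed, and triangles the values without heterozygote-labelled library 6. Tecta is at 2.91 and Ocm at -1.36; Esrrb and Kcnq1 move to 0.30 and 0.25 without library 6, and Myo15 to 0.40 with the length trend removed.

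Heterozygote-labelled library 6 stood apart in part of these genes. It had the lowest of the 8 values in 13 of the 45 (28.9%), against 8.73% of all genes tested. It had the highest in 3 (6.67%, against 10.8%). Wild-type library 1 had the lowest in 10 (22.2%, against 27.6%). Library 8 had the highest value in 17 (37.8%), against 12.9% of all genes. Over all 45 genes, the median deviation from the gene mean on the log2 scale was -0.15 in library 6 and lower, at -0.33, in wild-type library 1. Over the 18 bundle genes it was -0.15 in library 6, with wild-type libraries 1 and 2 lower at -0.41 and -0.23. Over the 5 genes of the synapse group it was -1.01 in library 6 and -0.40 to 0.46 in the others. Over the 11 tested genes of the further lateral wall list it was 0.58 in library 6 and -0.27 to 0.16 in the others. Dct, for a melanin enzyme of melanocytes such as the strial intermediate cells, had 186.9, 149.8, 25.7 and 15.7 normalized counts in wild type and 69.5, 8095, 992.3 and 48.8 in the labelled heterozygotes. Slc12a2, for the sodium, potassium and chloride cotransporter of marginal cells and fibrocytes, had 14102 in library 6 and 5462 to 7299 in the others. Conversely, Emilin2, for a matrix protein of the basilar membrane, had 606.4 there and 2474 to 4609.8 in the others. Library 6 thus had the highest Esrrb, Kcnq1, Dct and Slc12a2 and the lowest Ocm and Slc26a5 of the 8. Dct and Slc12a2 were chosen after their values were seen.

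**Figure D4:**
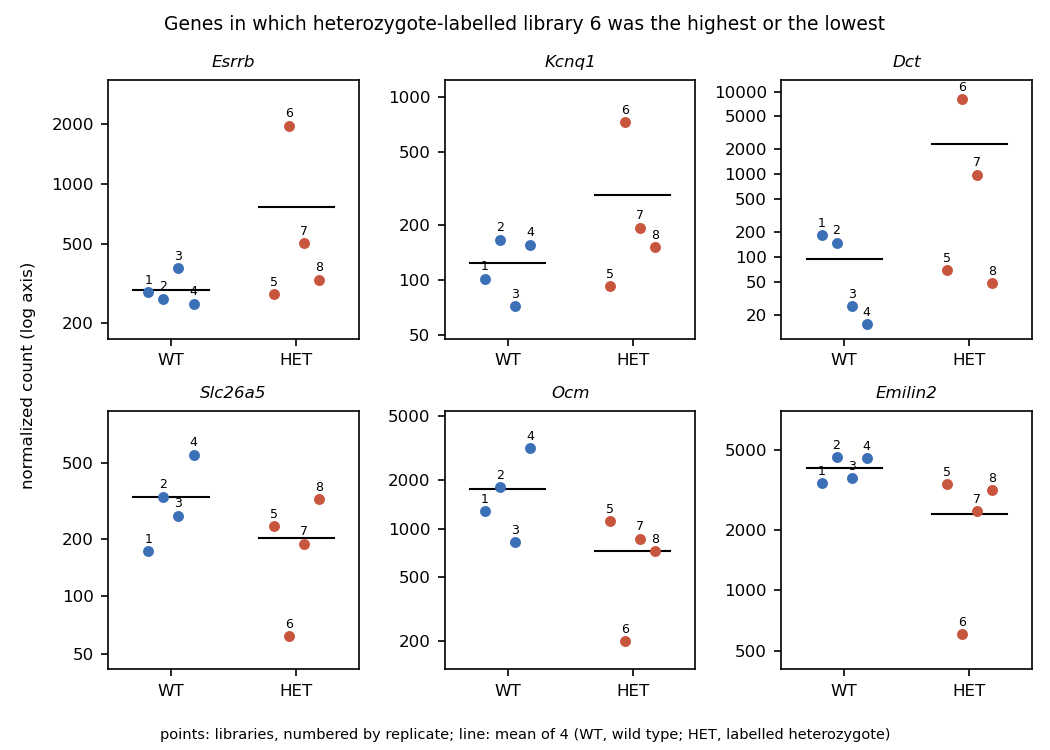
Normalized counts (log axis) of 6 genes by group, numbered by library, with the mean of 4 as a line. Library 6 is the highest in the strial genes Esrrb, Kcnq1 and Dct (1959.5, 725.8 and 8095) and the lowest in Slc26a5, Ocm and Emilin2 (61.9, 201.3 and 606.4).

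Several counts differed when library 6 was left out. It was the lowest of the 8 libraries in 13 of the 45 genes. Leaving it out therefore tends to raise the counts of genes higher in the labelled heterozygotes. Without it, 17 of the 45 genes had an unadjusted limma-trend p under 0.05, against 11.2% of all genes in the same fit, and 15 of them were higher in the labelled heterozygotes, against 5.14%. The added genes were Myo7a, Loxhd1, Otogl, Otoa and Tectb. The groups then did not overlap in 18 of 45 genes, 17 higher and 1 lower, against 10.9% of all genes. Otog alone then had an adjusted p under 0.05 among the 45. Other fits also raised the counts at an unadjusted limma-trend p under 0.05. With sample weights, 13 were higher and 4 lower, against 17.8% of all genes in either direction. Without the 2 libraries low in Xist, 13 were higher and 3 lower, against 13.5%. With each library left out in turn, 10 to 15 were higher and 1 to 3 lower. The share of all genes in either direction then ran from 7.94% without library 8 to 23.0% without wild-type library 3.

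A second pattern lay in the wild types. In Tecta, Ptprq and Gfi1, wild-type libraries 2 and 4 were the 2 lowest of all 8, and library 3 was the highest wild type. Otog and Esrrb had the same order with smaller gaps. Their wild-type libraries 1 to 4 had 2542, 2236, 3823 and 2533 normalized counts for Otog and 285.5, 264.2, 374.9 and 248.8 for Esrrb. A like order was seen in 3 genes of the further inner ear lists, picked out after their values were seen. Otol1, for otolin of the otoconia, a vestibular structure, had 96, 37.1, 287.8 and 25.4 normalized counts in wild type and 434.5, 266.6, 416.5 and 614.1 in the labelled heterozygotes, with a log2 fold change of 2.51 (standard error 0.60, limma-trend adjusted p 0.186). Espnl, for espin-like protein of stereocilia, had 29.8, 13.4, 188.8 and 32.6 in wild type and 167.3, 166.4, 244.1 and 369.4 in the labelled heterozygotes, a log2 fold change of 2.46 (standard error 0.63, limma-trend adjusted p 0.214). Its wild-type library 1 lay as low as libraries 2 and 4. Xirp2, for an actin-binding protein of hair cells, had 132.4, 41, 173.2 and 56.8 in wild type and 329.1, 198.7, 327 and 382.5 in the labelled heterozygotes, a log2 fold change of 1.80 (standard error 0.41, limma-trend adjusted p 0.163). Wild-type library 3 lay within the range of the labelled heterozygotes for Otol1 and Espnl and below it for Xirp2. Ocm and Slc26a5 did not follow this order, with their highest values in wild-type library 4.

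**Figure D5:**
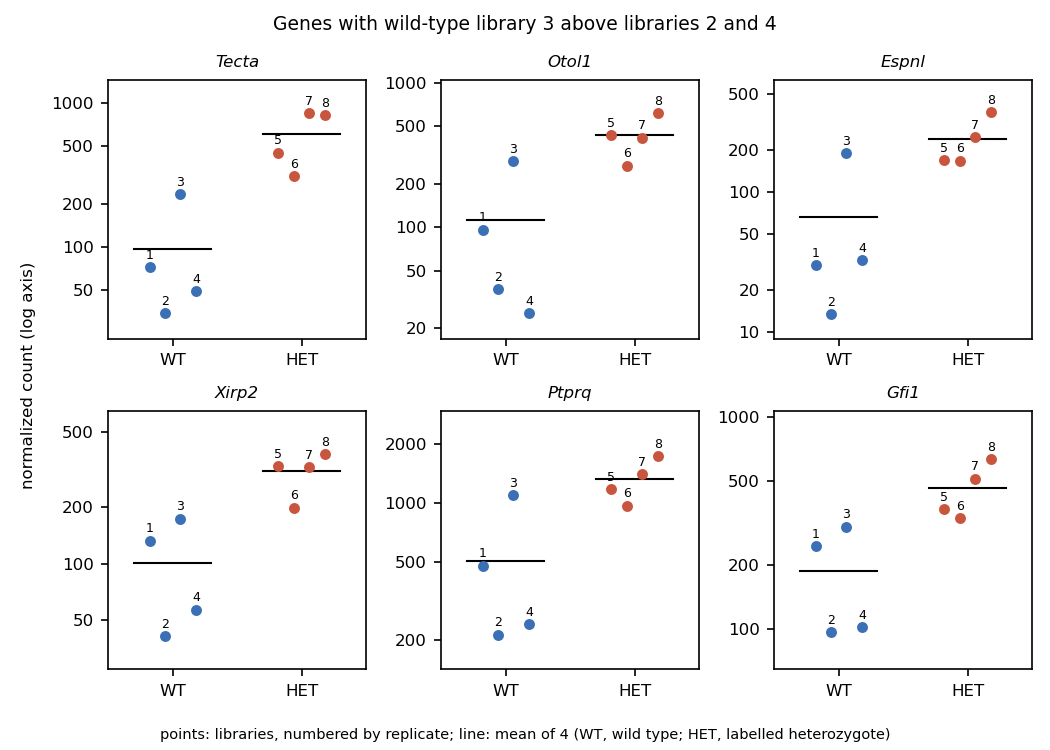
Normalized counts (log axis) of Tecta, Ptprq and Gfi1 and of Otol1, Espnl and Xirp2 from the further lists, by group, numbered by library, with the mean of 4 as a line. Wild-type library 3 is the highest wild type in each gene, and wild-type libraries 2 and 4 are the lowest of the 8 in each but Espnl, where libraries 2 and 1 are.

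Other inner ear genes from lists outside the 45 gave mixed counts. The lists named 78 genes, of which 65 were in the table analysed here. These were 15 of 21 other hair cell genes, 13 of 14 supporting cell and otolithic genes, 11 of 16 lateral wall genes and 26 of 27 other deafness genes. Of 15 other hair cell genes tested, 3 had an unadjusted limma-trend p under 0.05, all higher (Espnl, Xirp2 and Kcna10; 20%, against 6.72% of all genes), and the median log2 fold change was 0.31. Kcna10, for a potassium channel of hair cells, had 298.3 ± 75.5 in wild type and 511.4 ± 161.2 in the labelled heterozygotes (SD, n = 4 each), which gave 0.74 (standard error 0.26, limma-trend adjusted p 0.278). Of 13 supporting cell and otolithic genes, 3 had an unadjusted p under 0.05, against 14.1% of all genes, with Otol1 higher and Fgfr3 and Emilin2 lower, and the median was -0.18. Fgfr3, for a growth factor receptor of pillar and Deiters cells that astrocytes also make, had 693, 1118, 643.5 and 1062 normalized counts in wild type and 639.8, 504.5, 583.3 and 612.3 in the labelled heterozygotes. The groups did not overlap, and the log2 fold change was -0.55 (standard error 0.18, limma-trend adjusted p 0.266). Ceacam16, of the tectorial membrane like Tecta and chosen after its values were seen, had 14210.2, 16942, 8024 and 17202 in wild type and 13774, 7408, 12982 and 11791 in the labelled heterozygotes. Its log2 fold change of -0.27 (standard error 0.25, limma-trend adjusted p 0.618) had the opposite sign to that of Tecta. Of 11 lateral wall genes, 3 had an unadjusted p under 0.05, all higher (27.3%, against 6.72% of all genes). Among them were Car3, with a log2 fold change of 0.64, and Tbx18, with 0.31. Of all 64 genes tested in these lists, 0 passed an adjusted p of 0.05 in limma-trend, 11 had an unadjusted p under 0.05 (17.2%, against 14.1% of all genes), and 1 had an FDR under 0.05 in the authors' deposited table (1.56%, against 1.61%).

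Transcript length was set beside these differences, since many of the genes are long. The 45 genes had a median longest transcript of 4049 bases, against 3405 for all genes tested that had a length. Regressed on log2 length, the libraries' deviations had slopes from -0.21 to 0.07 in wild type and from 0.03 to 0.15 in the labelled heterozygotes, with library 8 the steepest and wild-type library 1 the most negative. With the trend on length removed from each library by loess, the number of the 45 with an unadjusted limma-trend p under 0.05 was 12, 10 higher and 2 lower, against 11.1% of all genes in the same fit, and the median log2 fold change was 0.17. Otof was no longer among the 12, and Grxcr1 entered with an unadjusted limma-trend p of 0.0223. Those above 0 then numbered 28 instead of 33.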

How the data were processed

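Poly(A) RNA of auditory nerve from 4 wild-type mice and 4 mice labelled Mef2c +/- was sequenced with a strand-marking kit, per the labels' protocols. The submitters' processing notes name STAR, Partek, DESeq2 and the build mm10, while the annotation and the counting were not given in the sources used here. The deposited signal values are gene counts divided by a size factor, given to 1 decimal. Beside them the authors deposited a p-value and FDR, a ratio, a log2 ratio and a signed fold change (a score, not used) for each gene, per the file headers. From 87.3% to 90.8% of values under 200 were whole multiples of a library's smallest step (tolerance 0.051), too few for a count model, so depth is an estimate.

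The values were tested as log2(value + 1) with limma-trend (limma 3.58.1, R 4.3.3) over the 14870 genes that reached 10 normalized counts in 4 or more libraries. P-values were adjusted over all of these by Benjamini-Hochberg, with a threshold of 0.05. The added 1 shrinks the fold changes of low genes, but they are not always below the authors' log2 ratios. They were above them for Tecta, Ptprq and Gfi1 (2.91, 1.66 and 1.43 against 2.64, 1.37 and 1.30). For Esrrb and Kcnq1 they were below (0.92 and 0.84 against 1.39 and 1.23). Replicates were separate mice, and no label gave sex, litter or batch. GENCODE M21 gave positions and the longest transcript of 97.6% of the genes. The fit was tested on simulated data with 200 changed genes. Given in every library are genes with an unadjusted p under 0.05 and the 3 with the highest level per kilobase in each role group. Of the further lists, up to 4 genes each with an unadjusted p under 0.05 were named. Otogl, Slc17a8, Slc26a5, Pou4f3 and Esrrb, and Dct, Slc12a2, Ceacam16, Chrna9 and Chrna10 of the further lists, fall outside this rule and were added once their values had been seen. One gene of the further lists is not reported here. The genes and lists were chosen with earlier results of these data known. The alternatives were other scalings, pseudocounts and filters, sample weights, removal of the length trend, a term for low Xist, and leaving out the low-Xist libraries or each library in turn. Figures used Python 3.11.15 with pandas 2.3.3 and matplotlib 3.10.9.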

Additional observations from a re-analysis of the deposited data

Results flagged for a closer look

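In 7 of the 90 groups of 4 libraries (45 genes, both genotypes), 1 library stood far from the other 3: its gap to the nearest, divided by the range of the group, was above the 95% critical value of Dixon's test. Chance flags about 1 in 20 groups, or 4.5 of 90. Heterozygote-labelled library 6 was the low one in 4 of them, with a gap ratio of 0.858 for Tmc1, 0.906 for Slc17a8, 0.901 for Coch and 0.850 for Tmprss3. Heterozygote-labelled library 8 was low for Diaph1 (0.905). In wild type, library 2 was high for Tmie (0.832) and library 1 was low for Otogl (0.873).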

How the results depend on the processing

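No listed gene result at an unadjusted p under 0.05 changed direction in the 18 alternatives. The number of all genes with an adjusted limma-trend p under 0.05, 12 in the fit reported, was 7 with quantile normalization, 96 with sample weights, 30 with the length trend removed and 0 to 221 with 1 library left out, 0 without wild-type library 2 or 4 or heterozygote-labelled library 8 and 221 without wild-type library 3. Of the 45 listed genes, 0 in the fit reported, it was 4 with sample weights (Ptprq, Gfi1, Otog and Tecta), 1 with the length trend removed (Tecta) and 0 to 4 with 1 library left out, the same 4 genes without wild-type library 3 and Otog without heterozygote-labelled library 6. The listed genes without overlap numbered 6 to 18 with 1 library left out, 18 without heterozygote-labelled library 6 (10.9% of all genes in that fit). Over the fits with 1 library left out, 8.73% to 20.9% of all genes had no overlap, against 7.26% with all 8. The cause of these changes was not tested. No paired analysis was possible because no label gave a litter or batch. The library numbers, 1 to 4 for wild type and 5 to 8 for the labelled heterozygotes, name no pairs either. Depth limits Grxcr1 and Adgrv1 most, with 9.7 and 16.9 normalized counts at their lowest.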

Other observations

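A list of 27 other deafness genes, mostly not specific to the cochlear epithelium, had 25 genes tested and a median log2 fold change of 0.09. Of these, 2 had an unadjusted limma-trend p under 0.05, both higher in the labelled heterozygotes (8%, against 14.1% of all genes in either direction and 6.72% higher), and 0 passed an adjusted p of 0.05. Myh9, for a nonmuscle myosin heavy chain, had 3011, 3542, 3347 and 2954 normalized counts in wild type and 3455, 4511, 3878 and 4534 in the labelled heterozygotes. Library 5 lay within the wild-type range. Its log2 fold change was 0.34 (standard error 0.11, limma-trend adjusted p 0.266). Gipc3, for a PDZ-domain partner of myosin VI in hair cells, had 231.0, 231.0, 359.3 and 274.2 in wild type and 399.7, 254.4, 381.7 and 574.8 in the labelled heterozygotes. Library 6 lay within the wild-type range, and the log2 fold change was 0.52 (standard error 0.24, limma-trend adjusted p 0.354).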
